A study of Mus musculus with 36 samples.

Results

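The receptors of the signalling lymphocytic activation molecule (SLAM) family and their adaptors were examined in mouse natural killer (NK) cells. Members were the rows whose symbol was Cd244a, Slamf6, Slamf7, Cd48, Ly9, Cd84, Sh2d1a, Sh2d1b1 or Sh2d1b2, and all 9 were found once in each of the 4 deposited tables, among 31323 symbols that the tables share. RNA was sequenced in 36 samples, in 12 groups of 3. In the first table, mature CD27-negative CD11b-positive splenic NK cells came from wild-type C57BL/6 mice (WT, B2m+/+) or from B2m-/- mice (KO), which lack the light chain of MHC class I. In each genotype they were sorted as TP (Ly49C, Ly49I and NKG2A all present), SP (Ly49I present, Ly49C and NKG2A absent) or TN (none of the 3). A second table holds NK cells purified from WT splenocytes that had been cultured for 22 h with the calcium ionophore ionomycin or its vehicle. In the third, WT splenic NK cells had spent 48 h in medium alone, on plate-bound antibodies against NKp46 plus NKG2D, or on plate-bound antibodies against NKp46 plus DNAM-1. The fourth holds CD27-negative CD11b-positive NK cells from C57BL/6 hosts bearing subcutaneous tumours of B2m-/- MC38 cells, a colon carcinoma line, at day 10. The genotype label of every group outside the first table is WT; the tumour columns carry B2MKO and SP in their names, which the labels do not explain. The labels number the samples as biological replicates and do not say whether animals were pooled. Nor do they say whether samples of the same number in different groups came from the same animal. The p-values measure the spread between these samples.

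SLAM receptors are immunoglobulin-family proteins of leukocytes, most of which bind a copy of themselves on the neighbouring cell. 2B4, the product of Cd244a, binds CD48 instead, a lipid-anchored protein without a signalling tail. The tails of the others recruit small SH2-domain adaptors, SAP (Sh2d1a), EAT-2 (Sh2d1b1) and, in rodents, ERT (Sh2d1b2), which couple them to activating kinases and phospholipases; without adaptors the same tails can recruit inhibitory phosphatases. In NK cells this system takes part in the recognition of blood cells and in the tuning of cytotoxicity.

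The 6 receptor or ligand genes and 2 adaptor genes lie on chromosome 1. In the RefSeq annotation of GRCm38.p6 the order of coding genes is Cd244a, Ly9, Slamf7 and Cd48 without a gene between them, then, past Slamf1, Cd84 and Slamf6. Sh2d1b2 and Sh2d1b1 are neighbours elsewhere on that chromosome, and Sh2d1a is on X. The RefSeq table (GRCm38.p6) held a promoter window of 300 bases, most of it before the gene start, for 7 of the 9. Printed here are the windows of the gene that differed by genotype (Slamf7, chr1:171648950-171649249, minus strand), of both genes called under ionomycin (Cd244a, chr1:171558943-171559242; Cd48, chr1:171681742-171682041, plus strand), of the adaptor closest to the threshold there (Sh2d1b1, chr1:170277068-170277367, plus strand) and of a gene with little difference there (Cd84, chr1:171839447-171839746, plus strand), 5′ to 3′ along the gene, with matches to TGANTCA, the AP-1 consensus, in capitals.
Slamf7: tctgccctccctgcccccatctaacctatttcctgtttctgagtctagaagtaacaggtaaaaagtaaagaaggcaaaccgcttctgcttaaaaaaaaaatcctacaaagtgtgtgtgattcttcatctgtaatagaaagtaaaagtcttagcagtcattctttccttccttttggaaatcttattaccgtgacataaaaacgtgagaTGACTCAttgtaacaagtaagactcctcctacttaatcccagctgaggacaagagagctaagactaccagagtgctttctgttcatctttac
Cd244a: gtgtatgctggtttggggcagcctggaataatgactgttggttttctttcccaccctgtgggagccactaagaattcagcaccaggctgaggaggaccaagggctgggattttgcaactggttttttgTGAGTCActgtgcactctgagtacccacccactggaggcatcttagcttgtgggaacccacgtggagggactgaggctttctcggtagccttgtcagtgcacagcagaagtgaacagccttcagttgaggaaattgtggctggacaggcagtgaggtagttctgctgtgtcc
Cd48: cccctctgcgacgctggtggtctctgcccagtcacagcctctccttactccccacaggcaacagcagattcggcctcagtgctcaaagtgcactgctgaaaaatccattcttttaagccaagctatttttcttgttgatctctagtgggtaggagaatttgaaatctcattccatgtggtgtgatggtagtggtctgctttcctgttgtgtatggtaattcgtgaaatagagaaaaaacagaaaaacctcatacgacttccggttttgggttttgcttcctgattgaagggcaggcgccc
Cd84: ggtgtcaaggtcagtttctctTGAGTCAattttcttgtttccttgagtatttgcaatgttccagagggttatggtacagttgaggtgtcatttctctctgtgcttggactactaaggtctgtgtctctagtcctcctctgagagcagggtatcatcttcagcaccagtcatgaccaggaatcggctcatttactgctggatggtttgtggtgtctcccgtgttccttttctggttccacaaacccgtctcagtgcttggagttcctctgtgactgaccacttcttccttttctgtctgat
Sh2d1b1: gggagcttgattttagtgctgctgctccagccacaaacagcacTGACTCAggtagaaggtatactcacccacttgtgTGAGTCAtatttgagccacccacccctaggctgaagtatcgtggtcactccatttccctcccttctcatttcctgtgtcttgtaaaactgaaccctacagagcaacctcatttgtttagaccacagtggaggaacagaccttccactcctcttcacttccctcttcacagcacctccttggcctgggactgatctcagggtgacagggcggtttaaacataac
The AP-1 letters, searched on both strands, begin at base 209 of the Slamf7 window, 129 of Cd244a, 22 of Cd84, and 44 and 78 of Sh2d1b1, counted from 1 at the 5′ end. Of the 7 windows 5 hold a match, as do 7.81% of all 32851 windows of the same length in the table. The 5 include the window of Sh2d1b2, not printed here, with a match at base 17. Its letters around the match are close to those of Sh2d1b1, so these windows are not separate cases. GGAAA, the core of the NFAT motif, whose letters on either strand cannot share a base with an AP-1 match, is in 6 of the 7 windows and in 61.3% of all windows. Both motifs were chosen with the values below known, and a match is a description of letters only.

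The labels and cell identity were checked once for all tables. B2m ran from 2915 to 3420 TPM in the WT subsets and from 73.9 to 128 TPM in the KO subsets. Klrc1, which encodes NKG2A, ran from 853 to 980 TPM in TP against 13.1 to 37.2 TPM in SP and TN libraries. In the tumour libraries, labelled WT, B2m was at 3929 to 5196 TPM and Klrc1 at 328 to 377 TPM. TPM scales transcript abundance to gene length and to the library's total and keeps no record of depth, so the depth behind each value is unknown. Genes above 0 numbered 12290 to 14501 per library in the subset table, 13904 to 14578 with vehicle and 15157 to 15483 with ionomycin, 13555 to 14674 in medium and 16107 to 18096 with antibodies, and 14155 to 16271 in the tumour table. All 8 NK markers were above 0 in every group. Of the lists for other cells, 4 of 4 plasma-cell markers were above 0 and summed to 223 to 465 TPM, and 4 of 5 neutrophil markers (Elane was at 0) summed to 38.0 to 168 TPM in the KO TP libraries, against at most 51.1 and 1.76 TPM in the other subset libraries. Neutrophil markers also summed to 265 TPM in vehicle replicate 3 and 118 TPM in ionomycin replicate 3. These are bulk samples, so fewer cells of a type and less RNA per cell cannot be told apart.

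In freshly isolated mature NK cells the family spanned a wide range of levels. Over the 18 subset libraries Cd48 was at 319 to 500 TPM and Cd244a, encoding its receptor 2B4, at 299 to 380 TPM, and these ranges overlap. Ly9, encoding the self-binding receptor CD229, followed at 211 to 295 TPM, below every Cd244a value. The next 3 overlapped: Cd84, another self-binding receptor, at 137 to 208 TPM, Slamf7 (CRACC, a self-binding receptor that signals through EAT-2) at 66.0 to 207 TPM, and the SAP gene Sh2d1a at 96.6 to 170 TPM. The EAT-2 gene Sh2d1b1 lay at 41.7 to 86.1 TPM, below every Sh2d1a value. Slamf6, encoding Ly108, at 1.20 to 26.9 TPM, and Sh2d1b2, at 0 to 11.8 TPM with 3 libraries at 0, were lowest and overlapped each other.

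**Figure D1:**
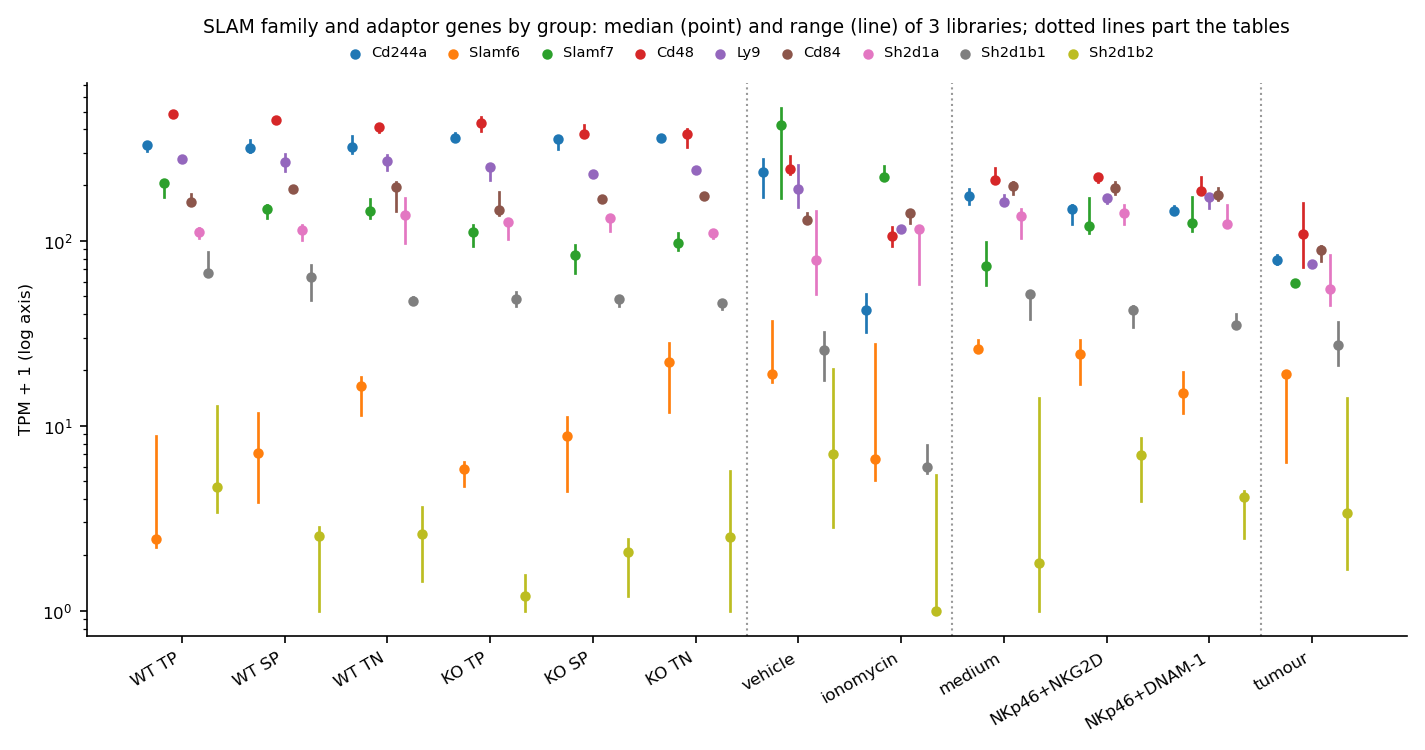
Level of the 9 genes in each of the 12 groups, as the median (point) and the range (line) of 3 libraries, on a log axis of TPM + 1; dotted lines part the 4 tables, which were not compared. Within each fresh subset Sh2d1a and the receptor and ligand genes other than Slamf6 sit above Sh2d1b1. Slamf6 and Sh2d1b2 sit lowest there, at 1.20 to 26.9 and 0 to 11.8 TPM.

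Slamf7 was lower in NK cells of B2m-/- mice. In TP cells it was at 207, 205 and 172 TPM in the WT libraries and at 92.7, 111 and 121 TPM in the KO libraries. In SP cells the WT values were 147, 156 and 133 TPM and the KO values 82.6, 66.0 and 94.2 TPM. In TN cells WT libraries held 168, 144 and 132 TPM and KO libraries 96.1, 88.2 and 110 TPM. The groups did not overlap in any of the 3 subsets, as for 18.3%, 18.9% and 13.7% of all genes tested in TP, SP and TN. The highest KO value of any subset, 121 TPM, was below the lowest WT value, 132 TPM. The subsets of a genotype may share animals, so values pooled over subsets need not be independent. All changes are differences of log2(TPM + 1), a scale that understates changes of low genes. Slamf7 fell by 0.85 (SE 0.14, 95% interval -1.15 to -0.54) in TP, from 195 ± 19.8 to 108 ± 14.4 TPM (SD, n = 3 each), with an adjusted p of 0.00374 in limma. In SP it fell by 0.85 (SE 0.14, interval -1.15 to -0.54, limma adjusted p = 0.00367), from 145 ± 11.8 to 80.9 ± 14.2 TPM. In TN the difference was -0.59 (interval -0.89 to -0.28) and did not pass, with a limma adjusted p of 0.0825.

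Slamf7 was the only 1 of the 9 genes called in KO against WT TP cells, where 1.59% of the 12018 genes tested were called, and in SP cells, where 1.35% were. A gene was called at a limma p under 0.05 after Benjamini-Hochberg adjustment over all genes tested. An unadjusted limma p under 0.05 was found for 4 of the 9 in TP and 4 in SP, as for 11.8% and 11.7% of all genes. In TN cells none was called at a background of 0.716%, and 1 had an unadjusted p under 0.05, as did 10.5% of all genes. Markers of other cells moved with these comparisons. In TP the plasma-cell and neutrophil lists were higher in KO as given above, and so were B-cell (169 to 224 against 129 to 154 TPM), T-cell (12.5 to 16.6 against 3.35 to 4.96 TPM) and macrophage and monocyte markers (29.2 to 60.2 against 19.1 to 21.8 TPM). In SP the KO libraries held 1.37 to 11.2 TPM of plasma-cell and 0 to 1.76 TPM of neutrophil markers, and the B-cell list was at 196 to 216 TPM in KO against 162 to 184 TPM in WT, with Pax5 at 0. Genes above 0 in SP numbered 13813 to 14501 in KO and 12290 to 13418 in WT. In TN the B-cell list was lower in KO, at 215 to 229 against 270 to 293 TPM. The part of these in the Slamf7 differences was not tested. The SP call was lost, at an adjusted p of 0.0525, when only the SP libraries entered the fit. Whether the genotype difference of Slamf7 varied by subset was tested with interaction terms, which gave 0.26 (interval -0.17 to 0.69, limma adjusted p = 0.869) for TN relative to TP and -0.003 (interval -0.43 to 0.43, limma adjusted p = 1) for SP relative to TP.

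The other receptors and the ligand differed less by genotype. For Cd244a the KO minus WT difference ran from 0.10 in SP (interval -0.09 to 0.28) to 0.17 in TP (interval -0.01 to 0.36), with limma adjusted p-values from 0.459 to 0.726. Cd48 in SP cells was at 461, 449 and 445 TPM in WT and 368, 379 and 422 TPM in KO, groups that did not overlap; its difference of -0.22 (interval -0.40 to -0.03) missed the threshold, with a limma adjusted p of 0.326. Ly9 in TP cells was at 271, 279 and 275 TPM in WT and 255, 249 and 211 TPM in KO, also without overlap, with a difference of -0.21 (interval -0.41 to -0.01, limma adjusted p = 0.39). Cd84 differed by -0.09, -0.18 and -0.05 in TP, SP and TN, with limma adjusted p-values from 0.609 to 0.938. The genotypes also did not overlap for Cd244a and Cd48 in TP and for Ly9 and Cd84 in SP. Of all genes tested, 18.3% in TP and 18.9% in SP were apart in this way. Slamf6, whose low values give wide intervals, differed by 0.62 in TP (interval -0.49 to 1.74), 0.15 in SP and 0.36 in TN, none called.

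Of the adaptors, Sh2d1b1 in TP cells was at 65.8, 86.1 and 64.9 TPM in WT against 47.5, 52.1 and 43.1 TPM in KO. The groups did not overlap, but the difference of -0.58 (interval -0.91 to -0.26) gave a limma adjusted p of 0.0759; it passed, at 0.0487, when columns were rescaled by median of ratios. Across the KO subsets Sh2d1b1 stayed between 41.7 and 52.1 TPM, a range that also holds all 3 WT TN values. Sh2d1a differed by 0.09, 0.19 and -0.27 in the 3 subsets, none called. Sh2d1b2, listed at 3.66, 2.40 and 11.8 TPM in WT TP cells and at 0.20, 0.55 and 0 TPM in KO TP cells, was close to the lower limit of the table, and its difference was not called (limma adjusted p = 0.127); in SP and TN it was -0.07 and 0.03. The longest coding transcripts of Sh2d1b1 and Sh2d1b2 in GENCODE vM21 are 90.3% identical over 2437 aligned bases, and 13.4% of the 50-base windows of either occur in the other, so how reads were shared between these genes makes both levels uncertain.

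**Figure D2:**
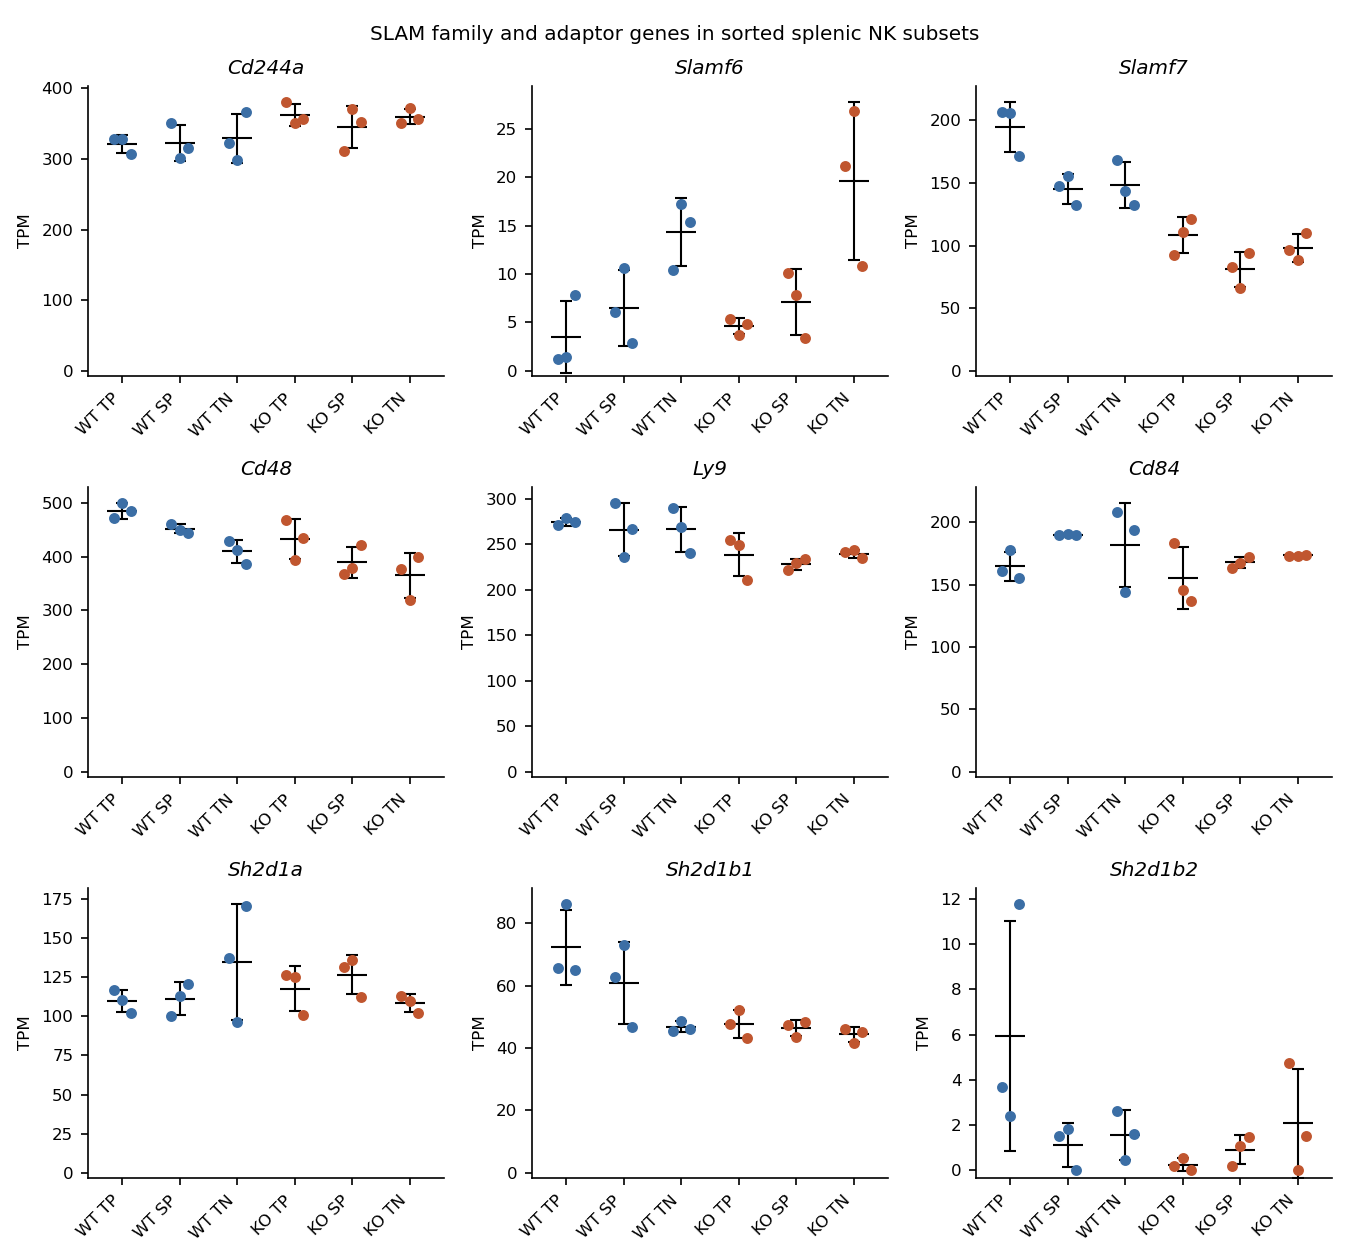
Level of each gene in TPM (vertical axis) in the 6 groups of sorted splenic NK cells; points are libraries (WT blue, KO orange), and bars give the mean and SD of 3. All 9 KO values of Slamf7 lie at or below 121 TPM and all 9 WT values at or above 132 TPM. The labels do not say whether the subsets of a genotype share animals.

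Along the sort from TP to TN, Slamf6 had the widest spread of the receptors. In WT it was at 1.20, 1.45 and 7.84 TPM in TP cells, at 6.08, 10.7 and 2.85 TPM in SP cells and at 10.5, 17.3 and 15.4 TPM in TN cells. In KO the corresponding values were 5.36, 3.73 and 4.81 TPM, then 10.2, 7.82 and 3.41 TPM, then 21.2, 26.9 and 10.8 TPM. In both genotypes every TN library was above every TP library, a separation that 14.6% of all genes tested showed in WT and 13.2% in KO in either direction. The TN minus TP difference was 2.06 in WT (interval 0.94 to 3.17, limma adjusted p = 0.0714) and 1.79 in KO (interval 0.68 to 2.91, limma adjusted p = 0.254), so neither was called. WT TP replicate 3 decided the first result: without it the difference was 2.70 and passed, with a limma adjusted p of 0.0113.

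None of the 9 genes was called by limma in any comparison of subsets within a genotype, against backgrounds of 1.31% for WT TN against TP, 0.191% for WT SP against TP, 0.383% for WT TN against SP, 0.524% for KO TN against TP, 0.2% for KO SP against TP and 0.0416% for KO TN against SP. In the same order 4, 2, 2, 2, 1 and 1 of the 9 had an unadjusted p under 0.05, as did 12.5%, 7.71%, 12.1%, 6.43%, 2.93% and 2.77% of all genes tested. None was called in the interaction of genotype with TN against TP (background 0.025%) or with SP against TP (0.0166%); 2 and 1 of the 9 had an unadjusted p under 0.05, as did 6.27% and 4.41% of all genes. Slamf7 and Cd48 had their highest WT values in TP cells without being called: Slamf7 differed by -0.39 between WT TN and TP (limma adjusted p = 0.233), and Cd48 by -0.24 (limma adjusted p = 0.223), each without overlap of the groups. Sh2d1b1 was at 45.4, 48.8 and 46.2 TPM in WT TN cells, all below the WT TP values given above, a difference of -0.60 (interval -0.93 to -0.28, limma adjusted p = 0.0691). Cd244a differed by 0.03 in WT (interval -0.16 to 0.21) and by -0.01 in KO (interval -0.20 to 0.17). The list of B-cell markers summed to 270 to 293 TPM in WT TN against 129 to 154 TPM in WT TP libraries, of which Ighm made 268 to 291 and 125 to 148 TPM; the part of this in the differences was not tested.

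Beyond the 9 genes, 3 lists of partners were counted: 12 effectors of SAP and EAT-2, 8 genes of inhibitory relay, and 4 relatives, of which only Cd2 passed the filter on low values. The 12 effectors of SAP and EAT-2 had 1 gene called in WT TN against TP: Fyn, the kinase that SAP recruits, rose by 0.27 (SE 0.06, limma adjusted p = 0.0347), from 601 ± 32.4 to 725 ± 26.9 TPM (SD, n = 3 each). The median difference of the list was -0.23, and of the inhibitory list 0.12, against -0.01 over all genes tested. In KO against WT TP cells these medians were -0.15 and 0.001, against 0.04. Of the 8 genes of inhibitory relay, Ptpn6, which encodes the phosphatase SHP-1, was the gene called. It rose by 1.02 from WT TP to WT TN (151 ± 16.0 to 307 ± 46.3 TPM, limma adjusted p = 0.00209) and by 1.11 from WT SP to WT TN (limma adjusted p = 0.00356). It was also higher in KO than in WT cells, by 1.23 in TP (353 ± 24.5 TPM in KO, limma adjusted p = 0.000239) and by 1.15 in SP (145 ± 40.7 TPM in WT, 314 ± 22.0 TPM in KO, limma adjusted p = 0.000616). Cd2, encoding a relative of the family that binds CD48 in rodents, was higher in KO than WT SP cells by 0.30 (586 ± 23.8 against 476 ± 32.6 TPM, limma adjusted p = 0.0485). In the other subset comparisons, the interactions included, no gene of the 3 lists was called.

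**Figure D3:**
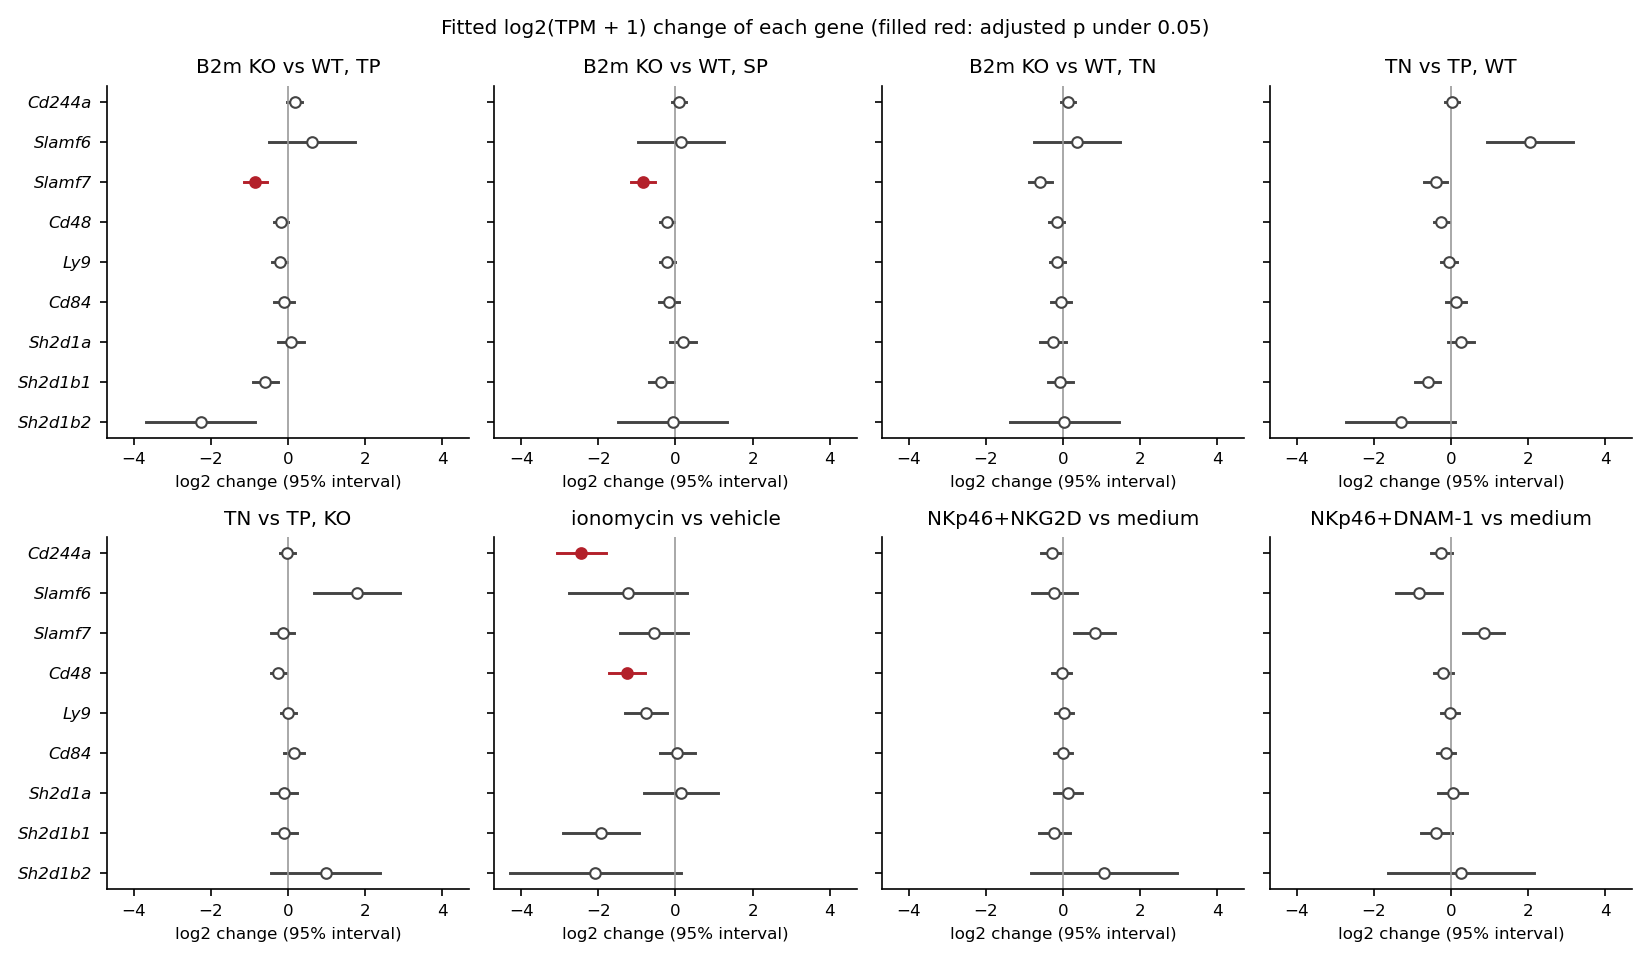
Difference of log2(TPM + 1) for each gene (rows) in 8 comparisons (panels), with 95% intervals from the limma fit; filled red points are called at an adjusted p under 0.05. The called points are Slamf7 in KO against WT TP and SP cells, both at -0.85, and Cd244a at -2.45 and Cd48 at -1.26 under ionomycin.

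Ionomycin was followed by lower RNA levels of Cd244a, which encodes 2B4, and of Cd48, which encodes its ligand. Cd244a was at 234, 274 and 172 TPM in the vehicle libraries and at 41.1, 50.4 and 31.0 TPM in the ionomycin libraries. Cd48 was at 243, 287 and 230 TPM with vehicle and 105, 92.3 and 117 TPM with ionomycin. Neither gene had overlapping groups, as was so for 20.1% of all genes tested. Cd244a fell by 2.45 (SE 0.28, interval -3.08 to -1.81, limma adjusted p = 0.0045), from 227 ± 51.5 to 40.8 ± 9.71 TPM (SD, n = 3 each), and Cd48 fell by 1.26 (SE 0.21, interval -1.74 to -0.79, limma adjusted p = 0.0178), from 253 ± 30.1 to 105 ± 12.6 TPM. Of the 9 genes 4 had an unadjusted limma p under 0.05, as did 15.1% of all genes. After adjustment Cd244a and Cd48 were the 2 of 9 genes called, against 2.91% of the 14372 genes tested. That share depended on single libraries: it was 4.43%, 0.996% and 5.00% without vehicle replicate 1, 2 or 3, and 0.559%, 0.343% and 0.301% without ionomycin replicate 1, 2 or 3.

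The Cd244a call held in all 13 alternatives, with adjusted p-values from 0.00352 to 0.0482. The Cd48 call did not: it was lost without a variance trend (adjusted p = 0.103), without vehicle replicate 2 (0.0797), without ionomycin replicate 1, 2 or 3 (0.0936, 0.119 and 0.0901) and without both libraries that carry neutrophil markers (0.0816), while the change stayed between -1.41 and -1.15. The 8 NK markers, all above 0 in both groups, summed to 6961 to 12025.5 TPM with vehicle and 3935 to 5028 TPM with ionomycin, T-cell markers to 2.24 to 7.87 and 13.2 to 25.3 TPM, dendritic-cell markers to 11.3 to 15.9 and 3.69 to 6.85 TPM, and platelet markers to 2.17 to 17.1 and 0 to 0.42 TPM. Genes above 0 also separated the groups, as given above, and the part of any of these in the results was not tested.

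No adaptor gene was called under ionomycin. Sh2d1b1 was at 16.7, 24.6 and 31.2 TPM with vehicle and 4.55, 4.95 and 6.84 TPM with ionomycin, groups that did not overlap. Its difference of -1.94 (interval -2.93 to -0.95) was just short of the threshold, with a limma adjusted p of 0.0547, and it passed after median-of-ratios rescaling (0.0437), quantile normalization (0.036) or without vehicle replicate 1 (0.0398). Sh2d1a was at 50.9, 77.3 and 144 TPM with vehicle and 114, 57.4 and 116 TPM with ionomycin, overlapping groups with a difference of 0.14 (interval -0.83 to 1.10). Sh2d1b2 was at 6.00, 19.4 and 1.83 TPM against 0, 4.39 and 0 TPM. The difference between the adaptors' changes was not tested.

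Among the other receptors Cd84 was at 129, 141 and 127 TPM with vehicle and 145, 140 and 124 TPM with ionomycin, a difference of 0.04 (interval -0.41 to 0.50, limma adjusted p = 0.955). Ly9 was at 150, 257 and 189 TPM against 116, 115 and 111 TPM; the groups did not overlap, but the difference of -0.76 (limma adjusted p = 0.161) passed only without vehicle replicate 1, with -0.95 and an adjusted p of 0.0487. Slamf7 was at 424, 521 and 169 TPM with vehicle and 219, 254 and 212 TPM with ionomycin. Vehicle replicate 3, which carries neutrophil markers, was below all 3 ionomycin libraries. Its NK markers summed to 6961 TPM, against 11671 and 12025.5 TPM in vehicle replicates 1 and 2. The part of either in its Slamf7 value was not tested. With vehicle replicate 3 the Slamf7 difference was -0.55 (limma adjusted p = 0.578), and without it -1.04, which passed with an adjusted p of 0.0273. Ionomycin replicate 3 carries these markers too, and without both libraries the difference was -0.99 and did not pass (adjusted p = 0.154). Slamf6 was at 16.2, 18.0 and 35.9 TPM against 26.8, 4.10 and 5.61 TPM, and the groups overlapped (difference -1.23, interval -2.76 to 0.30, limma adjusted p = 0.458).

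Of the 12 effectors of SAP and EAT-2, 2 fell under ionomycin and none rose, where 180 of all genes tested fell and 238 rose. Vav1, a guanine nucleotide exchange factor, fell by 1.17, from 158 ± 19.5 to 69.8 ± 6.20 TPM (limma adjusted p = 0.0272). Plcg2, the phospholipase that releases calcium stores, fell by 1.74, from 89.7 ± 25.8 to 25.3 ± 2.52 TPM (limma adjusted p = 0.0215). The list's median difference was -0.16, and that of the inhibitory list -0.10, against -0.004 over all genes tested. Of the 8 inhibitory genes, Dok2, an adaptor that restrains Ras signalling, fell by 1.46 (252 ± 29.2 to 94.1 ± 32.0 TPM, limma adjusted p = 0.0255), and Cblb, encoding a ubiquitin ligase that limits activation, rose by 1.54 (139 ± 59.4 to 379 ± 23.8 TPM, limma adjusted p = 0.0452).

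**Figure D4:**
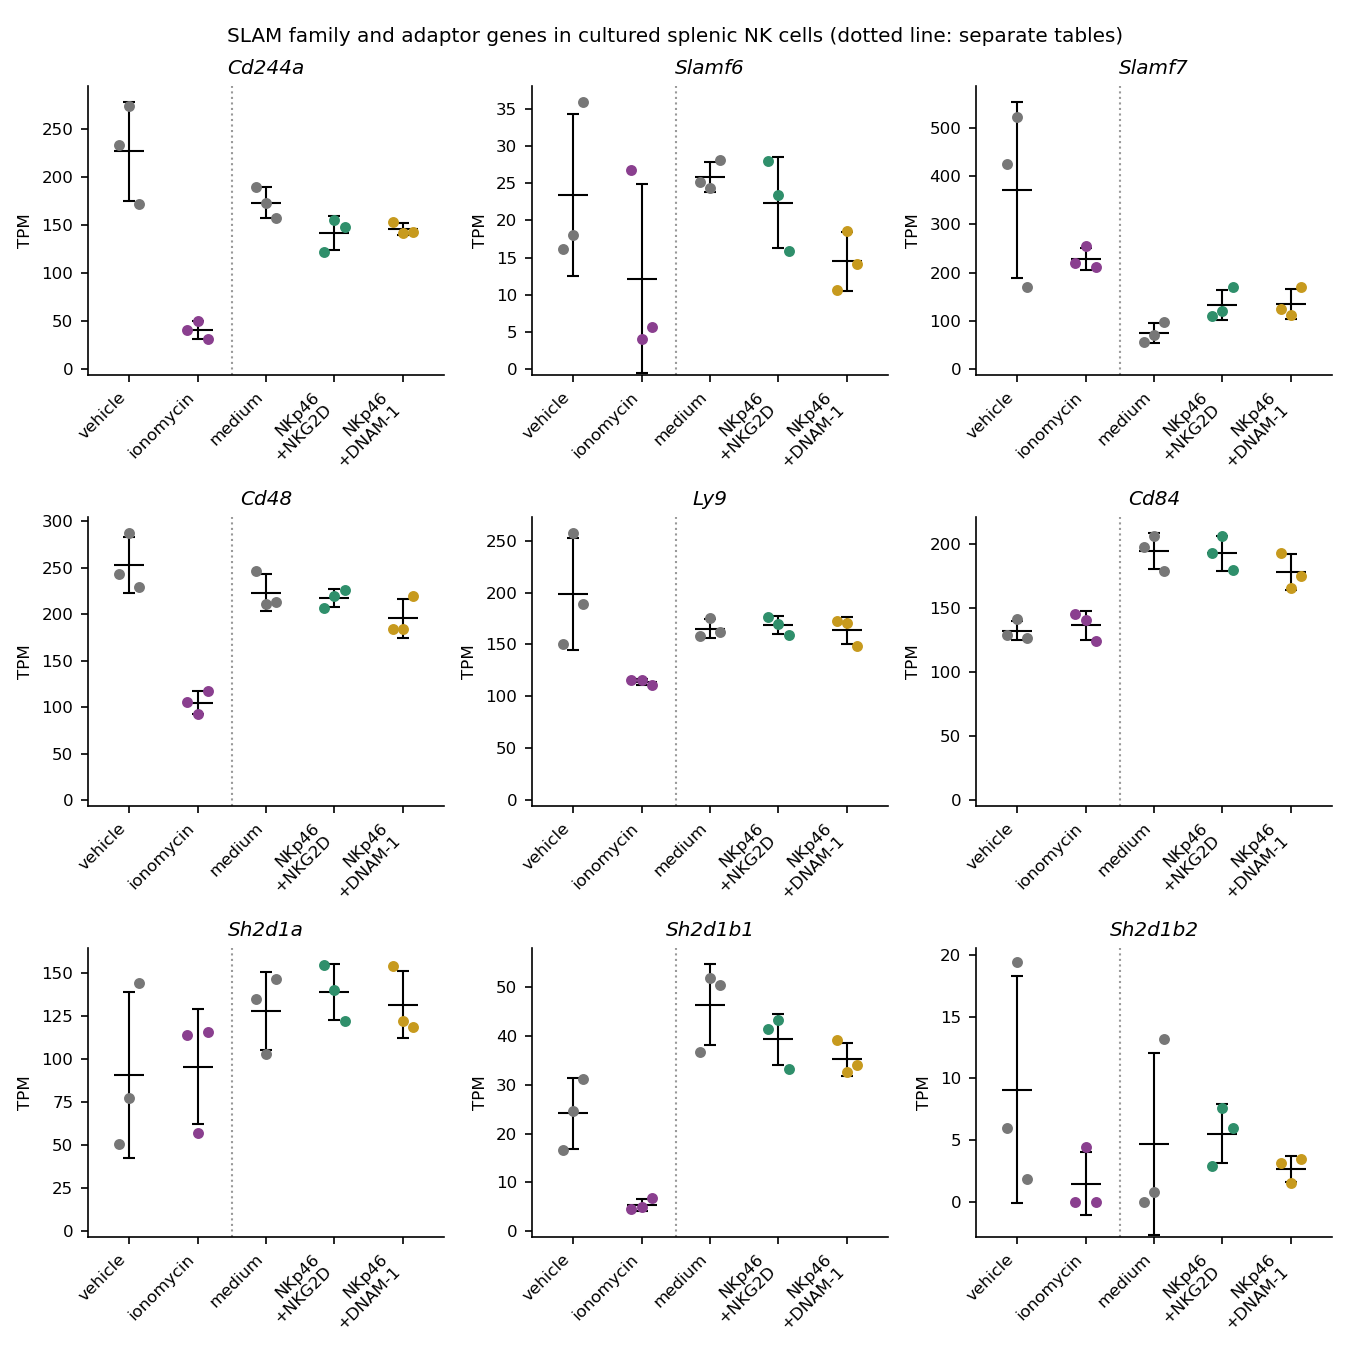
Level of each gene in TPM (vertical axis) in cultured splenic NK cells; points are libraries, bars give the mean and SD of 3, and the dotted line parts the ionomycin table from the antibody table. Cd244a lies at 31.0 to 50.4 TPM with ionomycin and at 172 to 274 TPM with vehicle, and Slamf7 is higher in all 6 antibody-stimulated libraries than in the 3 medium libraries.

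No gene of the family was called after stimulation with plate-bound antibodies in the main fit, which did not pair libraries. Slamf7 was at 56.7, 71.7 and 97.2 TPM in medium, at 110, 120 and 169 TPM with antibodies against NKp46 and NKG2D, and at 124, 112 and 171 TPM with antibodies against NKp46 and DNAM-1. All 6 stimulated libraries were above all 3 medium libraries; the groups were apart for 17.3% of all genes with the NKG2D pair and 21.1% with the DNAM-1 pair. The difference from medium was 0.82 for the NKG2D pair (interval 0.29 to 1.35, limma adjusted p = 0.167) and 0.85 for the DNAM-1 pair (interval 0.32 to 1.38, limma adjusted p = 0.125), comparisons that share the medium libraries. Without medium replicate 3 the second was 1.05 and passed, with an adjusted p of 0.0426. The column names share a number across the 3 conditions, and the labels do not say what it stands for. With that number as a replicate block Slamf7 was called for both pairs (limma adjusted p = 0.0204 and 0.0116). In that fit 1.75% and 3.86% of all genes were called. In this table the sample titles and the column names put 6 of 9 samples in different groups, and the column names were used. Under the titles the Slamf7 differences were 0.10 and 0.61, with limma adjusted p-values of 0.993 and 0.624. The title grouping called 0 and 1 of all 13689 genes for the NKG2D and DNAM-1 pairs, against 59 and 107 under the column names.

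By limma 0 of 9 genes were called for the NKG2D pair, against 0.431% of 13689 genes, for the DNAM-1 pair, against 0.782%, and between the antibody pairs, against 0.0146%; 2, 2 and 1 had an unadjusted p under 0.05, as did 15.1%, 18% and 1.22% of all genes. Slamf6 was at 25.2, 24.3 and 28.1 TPM in medium and at 10.7, 18.6 and 14.1 TPM with the DNAM-1 pair, without overlap, a difference of -0.82 (interval -1.41 to -0.24, limma adjusted p = 0.161). With the NKG2D pair it was at 27.9, 23.5 and 15.8 TPM and overlapped medium. Cd244a was at 190, 174 and 157 TPM in medium, and at 122, 156 and 148 TPM and 153, 142 and 143 TPM with the NKG2D and DNAM-1 pairs. Its stimulated values were all below the medium values, with differences of -0.29 (limma adjusted p = 0.298) and -0.24 (limma adjusted p = 0.332). For Cd48, Ly9, Cd84 and Sh2d1a the differences from medium ran from -0.19 to 0.13, and for Sh2d1b1 they were -0.23 and -0.37, none called. Sh2d1b2 was at 0, 0.81 and 13.2 TPM in medium, a range that holds all 6 stimulated values (1.47 to 7.61 TPM). No gene of the 3 partner lists was called in this table. B-cell markers summed to 183 to 219 TPM in medium against 123 to 177 TPM in the stimulated libraries, T-cell markers to 28.1 to 75.0 against 20.7 to 39.6 TPM, and genes above 0 separated medium from both antibody pairs; the part of these in the differences was not tested.

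In NK cells from B2m-/- MC38 tumours, a single group with no comparison in its table, Cd48 had the highest mean of the 9 genes. That mean was 112.5 TPM, from 108, 71.1 and 158 TPM, and in replicate 2 Cd48 was below Cd84, Sh2d1a, Ly9 and Cd244a. Cd84 at 76.7, 92.6 and 88.6 TPM, Cd244a at 77.9, 74.0 and 82.7 TPM and Ly9 at 73.2, 74.3 and 75.9 TPM fell within the range of Cd48 and were not distinct from it beyond that spread. Sh2d1a was at 44.0, 82.8 and 54.1 TPM and spanned Slamf7, at 57.5, 58.1 and 58.7 TPM. Sh2d1b1, at 35.3, 20.3 and 26.3 TPM, was below both. Slamf6, at 18.1, 5.34 and 18.6 TPM, and Sh2d1b2, at 13.1, 0.68 and 2.37 TPM, again were lowest. Macrophage and monocyte markers summed to 39.9 to 69.0 TPM and neutrophil markers to 0 in these libraries.

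Genes with the most similar pattern were listed by Pearson's r of log2(TPM + 1), as a description: libraries of a group share its condition, so a difference between groups raises r. Over the 18 subset libraries and 10866 named genes, the nearest to Slamf7 were Oip5os1 (r = 0.87) and Epsti1 (r = 0.87), to Slamf6 Cd27 (r = 0.88) and Myb (r = 0.87), and to Cd48 Ly6c2 (r = 0.89) and Ncr1 (r = 0.87). Nearest to Sh2d1b1 were Ucp2 (r = 0.89) and Itgb2 (r = 0.87), to Cd244a Hnrnph1 (r = 0.85) and Naa50 (r = 0.84), and to Ly9 Dhx58 (r = 0.84) and Ptpn7 (r = 0.82). Cd84 was nearest to Gxylt1 (r = 0.82) and D3Ertd751e (r = 0.81), Sh2d1a to Slc35a2 (r = 0.79) and Marchf3 (r = 0.75), and Sh2d1b2 to Snx13 (r = 0.77). Ncr1 encodes NKp46 and Cd27 the surface protein absent from the sorted gate. Over the 15 cultured libraries, each table centred on its own mean, Cd244a was nearest to Ncr1 (r = 0.98) and Gimap4 (r = 0.98), Cd48 to Dbnl (r = 0.97) and Cep85 (r = 0.96), Sh2d1b1 to Mob3a (r = 0.97) and Hsd11b1 (r = 0.97), and Slamf7 to Ncapg2 (r = 0.96) and Galns (r = 0.94). For Ly9 they were Psmb10 (r = 0.96) and Pik3r5 (r = 0.96), for Slamf6 Psen2 (r = 0.89), for Sh2d1a Fiz1 (r = 0.88) and Wls (r = 0.87), for Sh2d1b2 Sar1a (r = 0.87) and Slc2a1 (r = 0.87), and for Cd84 Zfp846 (r = 0.84) and Prmt9 (r = 0.79). No member had another member among its nearest 2 genes in either set.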

How the data were processed

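The authors deposited 4 tables of TPM, 1 per experiment. Per the submitters' processing notes, STAR, RSEM and the mouse build GRCm39 were used; versions and annotation are not given in the sources used here. Per the labels, libraries were made with an mRNA kit from total RNA. Groups came from the labels, except that in the antibody table the column names, attached to the values, were followed. Depth is unknown for TPM; precision rests on 3 replicates. Genes whose average across a table's libraries reached 1 TPM were tested as log2(TPM + 1), computed here from the deposited TPM, with limma 3.58.1 in R 4.3.3: a mean per group of the table, moderated variances with an intensity trend, two-sided p-values and Benjamini-Hochberg adjustment over all genes tested. With 3 against 3, an exact permutation test cannot give a p under 0.1. The script was tested on simulated data. All 9 genes passed the filter in the 3 tested tables. The genes and lists were chosen with earlier results of these data known. Values are named for the 9 genes, for called genes of the 3 partner lists, and for the 2 nearest genes by correlation, leaving out predicted genes; a few genes are not reported here. Alternatives were other pseudocounts, filters, scalings and variance models, leaving out libraries, fewer groups, a replicate block and the title grouping. Tables were not compared with each other.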

Additional observations from a re-analysis of the deposited data

How the results depend on the processing

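Over 15 comparisons, 208 counts of called genes were recomputed, and 195 stayed within 1.5 times the reported count. With 1 library left out at a time, the count ran from 0 to 1 for WT TN against TP, from 1 to 4 for ionomycin and from 0 to 1 for the DNAM-1 pair against medium. Median-of-ratios rescaling gave 2 genes for KO against WT TP cells, and fitting only the 2 groups gave 0 for SP cells. For ionomycin, the fit without a variance trend gave 1, and so did leaving out both libraries with neutrophil markers, an alternative chosen after seeing the data; fewer samples enter that fit, and otherwise the cause was not tested. The scalings moved the median of all genes by at most 0.062. No called gene changed direction in any alternative. The replicate numbers were checked for pairing: no table had every same-number correlation over 0.1, and 4 of 9 WT, 7 of 9 KO, 5 of 6 ionomycin-table and 7 of 9 antibody-table libraries correlated best with their own number. With the number as a replicate block, Slamf7 was called for both antibody pairs (1 gene each, adjusted p = 0.0204 and 0.0116), and the calls over all genes went from 59 to 239 and from 107 to 528; the block changed no other count for the 9 genes.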

Other observations

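The members of the family that were not among the 9 genes were at or near 0 in most libraries. Slamf1, which encodes SLAM itself, was listed at 0 to 1.28 TPM over the subset, ionomycin, antibody and tumour libraries. Slamf8 and Slamf9, receptors of myeloid cells, were at 0 in every subset library, and in the cultured libraries Slamf9 was at 0 and Slamf8 at no more than 1.51 TPM. In the tumour libraries Slamf8 ran from 0 to 7.64 TPM and Slamf9 from 0 to 8.96 TPM, beside macrophage and monocyte markers that summed to 39.9 to 69.0 TPM. None of the 3 passed the filter on low values in the tested tables.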
